A study of Mus musculus with 30 samples.

Results

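The 9 genes described here encode 6 secreted metalloproteases of the ADAMTS family (Adamts1, Adamts2, Adamts4, Adamts5, Adamts9 and Adamts12) and 3 tissue inhibitors of metalloproteases (Timp1, Timp2 and Timp3). They were taken by symbol as a family, with earlier results of these data known, and all 9 were found among the 14118 genes of the deposited count matrix. Their transcripts were followed over 30 bulk RNA-seq libraries from 6 cell populations, each sorted by flow cytometry out of the same 5 mammary adenocarcinomas of FVB/N-Tg(MMTVPyVT)634Mul/J mice. In this transgenic strain the mouse mammary tumour virus promoter drives the polyoma virus middle T antigen in mammary epithelium. Every population came from a tumour of 750 mm3, and no tumour-free tissue was used. Endothelial cells were sorted as CD45- and CD31+. Cancer-associated fibroblasts (CAFs) were CD45-, CD31- and CD90+, and were parted into CAF1 (CD34-) and CAF2 (CD34+). Tumour-associated macrophages were CD45+ and F4/80+, and were parted into CD206hi (MHC class II low), CD206pos (MHC class II high) and CD206neg (MHC class II low). Each group holds 5 libraries, 1 per tumour, and values per library are given below in the order of tumours 5, 6, 8, 10 and 11.

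ADAMTS proteases are zinc enzymes that cells release into the extracellular matrix. ADAMTS1, ADAMTS4, ADAMTS5 and ADAMTS9 cut proteoglycans such as versican and aggrecan, ADAMTS2 removes the amino-terminal propeptide of fibrillar procollagens, and ADAMTS12 can cut cartilage oligomeric matrix protein. TIMPs block metalloproteases by inserting their amino terminus into the active site. TIMP3, which stays bound to the matrix, is the member of that family best known for inhibiting ADAMTS enzymes. TIMP1 and TIMP2 act mainly on matrix metalloproteases, and TIMP2 also takes part in the activation of pro-MMP2 by MMP14.

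The parts of these proteins that meet at the active site are shown as coding sequence, because they carry the family resemblance among the 9 genes. Each stretch is 36 bases (12 codons) of spliced coding sequence, read 5′ to 3′ from the GENCODE M21 transcripts of GRCm38 (mm10). In the ADAMTS genes the capitals mark the codons of the 3 zinc-binding histidines and of the catalytic glutamate. In the Timp genes the capitals mark the codons of the first pair of cysteines of the mature protein, whose amino-terminal one contacts the zinc of the protease.
Adamts1: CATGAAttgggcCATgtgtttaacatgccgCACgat
Adamts4: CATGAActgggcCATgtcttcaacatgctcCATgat
Adamts9: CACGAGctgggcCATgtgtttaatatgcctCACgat
Adamts5: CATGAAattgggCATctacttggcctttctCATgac
Adamts2: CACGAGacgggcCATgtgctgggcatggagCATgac
Adamts12: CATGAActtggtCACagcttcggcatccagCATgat
Timp1: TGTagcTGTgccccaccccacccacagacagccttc
Timp2: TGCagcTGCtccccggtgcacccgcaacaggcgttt
Timp3: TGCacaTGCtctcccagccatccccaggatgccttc
Over these 36 bases Adamts1 was identical to Adamts9 at 31 and to Adamts4 at 30, and Adamts4 to Adamts9 at 28, whereas the other ADAMTS pairs shared 20 to 26 bases. Each pair of Timp genes shared 22 bases.

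The ADAMTS stretches each cross an exon junction, with spans of chr16:85799188-85799545 for Adamts1 (minus strand, exons 3 and 4), chr1:171253210-171253918 for Adamts4 (plus, exons 3 and 4), chr6:92905282-92908493 for Adamts9 (minus, exons 8 and 9), chr16:85878012-85887826 for Adamts5 (minus, exons 2 and 3), chr11:50775403-50776137 for Adamts2 (plus, exons 7 and 8) and chr15:11241529-11255567 for Adamts12 (plus, exons 7 and 8). The Timp stretches each lie in a single exon, at chrX:20871111-20871146 for Timp1 (plus, exon 2), chr11:118354977-118355012 for Timp2 (minus, exon 1) and chr10:86300923-86300958 for Timp3 (plus, exon 1). The 9 genes lie on 7 different chromosomes. Adamts4 spans chr1:171250421-171260637, Timp1 chrX:20870166-20874735, Timp2 chr11:118301069-118355740, Timp3 chr10:86300372-86349506, Adamts2 chr11:50602084-50807573, Adamts9 chr6:92772699-92943492 and Adamts12 chr15:11064790-11349231. Adamts1 (chr16:85793827-85803113) and Adamts5 (chr16:85856173-85901828) are neighbours, 53059 bases apart on the same strand.

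Library totals ran from 6292411 to 11957076 counts, so that the 3 counts which a count of 0 allows at 95% came to 0.251 to 0.477 CPM (counts per 1000000 of the library total). Transcripts of each lineage's markers were highest in its own gates. The summed level of 8 endothelial markers was 2830 to 6573 CPM in endothelial libraries and at most 141 CPM elsewhere, and 9 macrophage markers summed to 13180 CPM or more in macrophage libraries and at most 48.7 CPM elsewhere. The sum of 7 fibroblast markers was 102 to 1443 CPM in endothelial libraries, 38180 to 167000 CPM in CAF1, 66190 to 89870 CPM in CAF2 and 5.65 to 34.8 CPM in macrophage libraries. The 2 CD206neg libraries of tumours 6 and 8 have columns named for high MHC class II but labels that give low, and the labels were followed.

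Transcripts of the 6 proteases came almost wholly from the CAF and endothelial libraries. The order of mean CPM over endothelial cells, CAF1 and CAF2 differed between proteases, although Adamts2 shared its order with Adamts12 and Adamts4 with Adamts9. Adamts9 was highest in endothelial cells, Adamts5 in CAF2 and Adamts2 and Adamts12 in CAF1, while Adamts1 and Adamts4 were high in all 3. Of the inhibitors, Timp1 was highest in CAFs, Timp3 overlapped between CAFs and endothelial cells, and Timp2 was abundant in CAFs and in every macrophage group. Bulk libraries cannot tell fewer cells of a type from less RNA per cell.

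**Figure D1:**
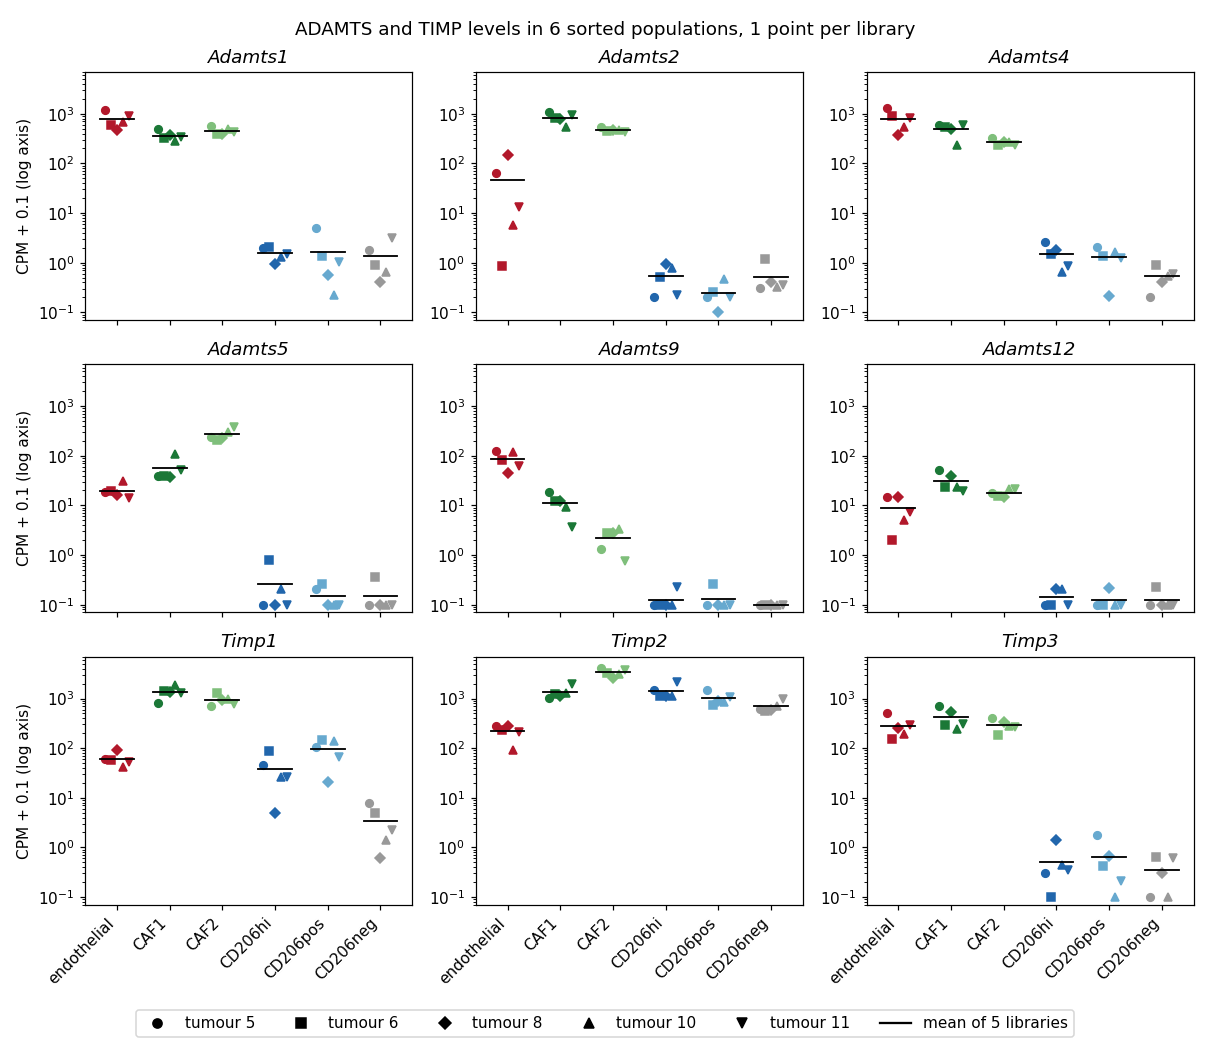
Level of each of the 9 genes in the 6 sorted populations, as CPM + 0.1 on a log axis, with 1 point per library, the point's shape giving the tumour and the bar the mean of 5 libraries. The 6 ADAMTS genes and Timp3 stand near or below 1 CPM on average in the macrophage groups, whereas Timp2 averages 1403 CPM in CD206hi, 1004 CPM in CD206pos and 699 CPM in CD206neg.

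Adamts9, a protease of versican that is known from the vasculature of mice, parted the 3 stromal populations without overlap. It stood at 126.6, 81.3, 44.5, 119 and 63.2 CPM in endothelial libraries. In CAF1 it stood at 18.7, 12.1, 12.35, 9.33 and 3.55 CPM, and in CAF2 at 1.199, 2.69, 2.69, 3.18 and 0.670 CPM. The lowest endothelial library therefore lay above every CAF1 library, and the lowest CAF1 library just above every CAF2 library. Fold changes and their tests come from edgeR's quasi-likelihood test on TMM-scaled counts, with p-values adjusted by the Benjamini-Hochberg method over all genes tested and 0.05 as the threshold, and ± after a log2 fold change is its standard error. Adamts9 had a log2 fold change of 2.59 ± 0.38 for endothelial cells over CAF1 (edgeR adjusted p = 5.62e-06), of 4.998 ± 0.43 for endothelial cells over CAF2 (edgeR adjusted p = 7.66e-10) and of 2.42 ± 0.42 for CAF1 over CAF2 (edgeR adjusted p = 0.00135).

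Adamts5, an aggrecan- and versican-cutting protease, had the opposite order. Endothelial libraries held 18.4, 19.6, 16.2, 30.6 and 14.1 CPM, CAF1 libraries 39.4, 39.2, 37.2, 111 and 52.7 CPM, and CAF2 libraries 245, 207.5, 231.5, 306 and 388 CPM. No ranges overlapped, although CAF1 of tumour 10 stood well above the other 4 CAF1 libraries. The log2 fold change was -2.04 ± 0.39 for endothelial cells over CAF1 (edgeR adjusted p = 0.000106), -4.19 ± 0.42 for endothelial cells over CAF2 (edgeR adjusted p = 2.55e-09) and -2.13 ± 0.37 for CAF1 over CAF2 (edgeR adjusted p = 0.00142).

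Adamts2, the procollagen N-proteinase, was highest in the fibroblasts. Endothelial libraries held 64.9, 0.749, 147, 5.77 and 13.2 CPM, CAF1 libraries 1088, 839.7, 790.0, 536 and 954 CPM, and CAF2 libraries 548, 452.5, 463, 474 and 436 CPM. All endothelial libraries lay below all CAF libraries, with a wide spread among themselves. Fibroblast markers summed to 1013, 137, 1443, 102 and 409.6 CPM in the same endothelial libraries, each of the 7 markers having counts in the group, so that tumours 8, 5 and 11 held the 3 highest values of both. The part of fibroblast RNA in the endothelial level of Adamts2 was not tested. Adamts2 had a log2 fold change of -4.83 ± 0.73 for endothelial cells over CAF1 (edgeR adjusted p = 4.13e-06), -3.87 ± 0.69 for endothelial cells over CAF2 (edgeR adjusted p = 3.67e-05) and 0.98 ± 0.25 for CAF1 over CAF2 (edgeR adjusted p = 0.0156).

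Adamts12, which cuts cartilage oligomeric matrix protein, was lowest in endothelial cells among the 3 stromal populations. It stood at 14.4, 1.87, 14.6, 5.08 and 7.11 CPM in endothelial libraries, at 51.1, 23.7, 39.45, 23.7 and 19.5 CPM in the CAF1 libraries and at 18.0, 15.2, 14.6, 21.1 and 21.2 CPM in CAF2. CAF1 and CAF2 overlapped, while every endothelial library lay below every CAF1 and CAF2 library, the highest endothelial library only just below the lowest CAF2 one. As for Adamts2, the 3 highest endothelial values were those of tumours 8, 5 and 11, which also held the 3 highest sums of fibroblast markers among endothelial libraries, and the part of fibroblast RNA was not tested. The log2 fold change was -2.32 ± 0.37 for endothelial cells over CAF1 (edgeR adjusted p = 9e-06), -1.50 ± 0.36 for endothelial cells over CAF2 (edgeR adjusted p = 0.00109) and 0.84 ± 0.18 for CAF1 over CAF2 (edgeR adjusted p = 0.00459).

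Adamts1 and Adamts4 had the highest endothelial levels of the 6 proteases per kilobase of exon, at 158 ± 60.5 and 165 ± 76.6 CPM per kilobase (SD, n = 5). Adamts1 held 1216, 589, 469.5, 676 and 904.5 CPM in endothelial libraries, 487, 333, 366, 280.3 and 346 CPM in CAF1, and 578, 387.5, 389, 496 and 426 CPM in CAF2. The 3 ranges overlapped, and neither endothelial cells over CAF1 (log2 fold change 0.61 ± 0.44, edgeR adjusted p = 0.311), endothelial cells over CAF2 (0.40 ± 0.44, edgeR adjusted p = 0.489) nor CAF1 over CAF2 (-0.20 ± 0.19, edgeR adjusted p = 0.534) passed the test. The endothelial libraries had TMM factors of 1.27 to 1.672, the factors of all libraries running from 0.5493 to 1.672, so a fold change of endothelial cells is lower than the ratio of mean CPM.

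Adamts4, an aggrecan-cutting protease, held 1336, 894, 373, 545.5 and 812 CPM in endothelial libraries. CAF1 libraries held 589.8, 532, 498, 232 and 592.5 CPM, and CAF2 libraries 325, 234, 272, 272 and 239.5 CPM. In CPM every endothelial library lay above every CAF2 library, while CAF1 overlapped with both. After division by the TMM factors, endothelial cells of tumour 8 (1.672) lay below CAF2 of tumour 5 (1.245). Endothelial cells over CAF2 had a log2 fold change of 1.21 ± 0.40 (edgeR adjusted p = 0.0138), which missed the threshold without endothelial tumour 5 (0.95 on the log2 scale, edgeR adjusted p = 0.0562, the range over all alternatives being 0.00404 to 0.0562). Endothelial cells over CAF1 had 0.19 ± 0.39 (edgeR adjusted p = 0.762) and CAF1 over CAF2 had 1.04 ± 0.29 (edgeR adjusted p = 0.0224).

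Timp1, a soluble inhibitor of matrix metalloproteases, was a CAF transcript with a second, lower level in endothelial cells and in the CD206-positive macrophages. It held 60.2, 58.5, 91.7, 41.8 and 51.7 CPM in endothelial libraries, 829, 1449, 1329, 1835 and 1279 CPM in CAF1, and 719.9, 1299, 952.5, 973 and 771 CPM in CAF2. Endothelial libraries lay below all CAF libraries, whereas CAF1 and CAF2 overlapped. The log2 fold change was -5.04 ± 0.65 for endothelial cells over CAF1 (edgeR adjusted p = 3.54e-07), -4.39 ± 0.63 for endothelial cells over CAF2 (edgeR adjusted p = 1.25e-06) and 0.67 ± 0.34 for CAF1 over CAF2 (edgeR adjusted p = 0.206). In CPM Timp1 was higher in CAF1 than in CAF2 in 5 of 5 tumours. Divided by the TMM factors, CAF1 of tumour 5 (1.483) lay below CAF2 of tumour 5 (1.245). Timp1 lies inside the gene of synapsin 1, Syn1, on the opposite strand and with no shared exon, and Syn1 stood at no more than 5.67 CPM in any library.

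Timp2 was the inhibitor shared by fibroblasts and macrophages. Endothelial libraries held 282, 228, 273, 91.1 and 209 CPM, CAF1 libraries 1045, 1237, 1122, 1321 and 1999 CPM, and CAF2 libraries 4156, 3231, 2589, 3165 and 3721 CPM. In CPM every CAF1 library lay below every CAF2 library and above every endothelial library. Once divided by the TMM factors, CAF1 of tumour 11 (factor 0.691) lay above CAF2 of tumour 8 (1.104), so CAF1 and CAF2 overlapped on that scale. Endothelial cells had a log2 fold change of -3.25 ± 0.42 over CAF1 (edgeR adjusted p = 3.56e-07) and of -4.35 ± 0.44 over CAF2 (edgeR adjusted p = 2.89e-09). CAF1 over CAF2, at -1.09 ± 0.36, missed the threshold (edgeR adjusted p = 0.0534) but passed it with tumour as a block (-1.24, edgeR adjusted p = 0.0173), the same tumours having supplied both groups.

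Timp3, the matrix-bound inhibitor of ADAMTS enzymes, overlapped between all 3 stromal populations. It held 516, 151, 254, 195 and 296 CPM in endothelial libraries, 704, 293, 531, 241.5 and 309 CPM in CAF1, and 405, 188, 331, 277 and 269.7 CPM in CAF2. Each group spanned a wide range, with tumour 5 the highest in all 3. Endothelial cells over CAF1 had a log2 fold change of -0.98 ± 0.44 (edgeR adjusted p = 0.0828, and -1.02 with edgeR adjusted p = 0.0218 with tumour as a block), endothelial cells over CAF2 -0.43 ± 0.43 (edgeR adjusted p = 0.436), and CAF1 over CAF2 0.57 ± 0.23 (edgeR adjusted p = 0.113, and 0.53 with edgeR adjusted p = 0.0467 with tumour as a block). In the annotation exons of Timp3 overlap those of Syn3, which was not analysed here. The 95% interval of the difference of endothelial cells from CAF2 ran from -1.32 to 0.45 on the log2 scale.

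Set against each other as whole groups, endothelial cells and CAFs differed in most of the 9 genes. For endothelial cells over CAF1, 1 gene was higher (Adamts9) and 5 were lower (Adamts2, Adamts5, Adamts12, Timp1 and Timp2) where 34.7% of the 13610 genes tested were called, 15.9% as higher and 18.8% as lower. For endothelial cells over CAF2, which uses the same endothelial libraries, Adamts4 and Adamts9 were higher and 5 genes lower (Adamts2, Adamts5, Adamts12, Timp1 and Timp2), where 46% of genes were called, 23.7% as higher and 22.3% as lower. The CPM ranges of 6 of the 9 genes did not overlap for endothelial cells over CAF1 and those of 7 for endothelial cells over CAF2, which held for 25.8% and 36.9% of all genes. The median log2 fold change of the 9 genes was -2.04 over CAF1 and -1.50 over CAF2, against -0.005 and 0.05 over all genes tested. Over CAF1, Timp3 passed the threshold also in a fit of only the groups compared (-1.01, edgeR adjusted p = 0.0291) and without endothelial tumour 5 (-1.32, edgeR adjusted p = 0.025), and over all its alternatives the adjusted p ranged from 0.0218 to 0.177. Pericyte and smooth muscle markers were present beside the endothelial ones, the 10 of them summing to 880.0 to 3656 CPM in endothelial libraries, 1251 to 6773 CPM in CAF1 and 224 to 404 CPM in CAF2. Among the 10, Mcam stood higher in every endothelial library than in any CAF1 or CAF2 library, so the endothelial sum need not be pericyte RNA alone. Luminal epithelial markers summed to 199 to 2297 CPM in endothelial libraries, 203 to 1679 CPM in CAF1 and 1.598 to 424 CPM in CAF2, and myoepithelial markers to 63.4 to 1368 CPM, 84.0 to 4086 CPM and 0.0836 to 8.99 CPM in the same groups. For endothelial cells over CAF2 the calls were higher for 6 of 10 pericyte, 7 of 7 luminal and 4 of 4 myoepithelial markers, and for endothelial cells over CAF1 they were 1 higher and 6 lower of 10 pericyte markers and none of the epithelial ones. The part of these cell types in the differences was not tested.

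**Figure D2:**
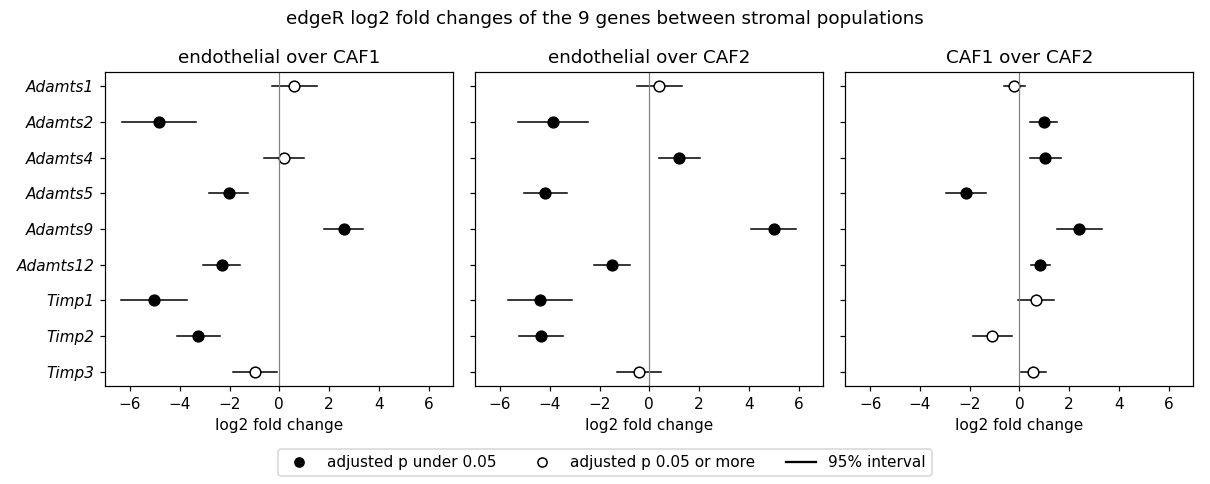
edgeR log2 fold changes of the 9 genes for endothelial cells over CAF1, endothelial cells over CAF2 and CAF1 over CAF2, with 95% intervals as lines and filled points for adjusted p under 0.05. Adamts9 lies right of 0 in all 3 panels (2.59, 4.998 and 2.42) and Adamts5 left of 0 (-2.04, -4.19 and -2.13).

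Between the fibroblast subsets, 4 proteases were higher in CAF1 than in CAF2 (Adamts2, Adamts4, Adamts9 and Adamts12) and 1 was lower (Adamts5), which is 5 of 9 genes where 19.5% of the 12149 genes tested were called, 10.9% as higher and 8.59% as lower. No inhibitor passed the test. The CPM ranges of Adamts9, Adamts5 and Timp2 did not overlap, which held for 11.8% of all genes. The median log2 fold change was 0.67 over the 9 genes and 0.01 over all genes tested. In a fit of all 30 libraries 3 of the 9 genes were called, Adamts5, Adamts9 and Timp2, while Adamts2 (edgeR adjusted p = 0.349), Adamts4 (edgeR adjusted p = 0.0796) and Adamts12 (edgeR adjusted p = 0.113) were not.

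Single libraries bore on 4 of these values. Adamts4 missed the threshold without CAF1 tumour 6 (edgeR adjusted p = 0.0528), CAF2 tumour 10 (edgeR adjusted p = 0.0565) or CAF2 tumour 11 (edgeR adjusted p = 0.0563), within a range over all alternatives of 0.00139 to 0.0796. Timp1 passed it without CAF1 tumour 5 (0.87 on the log2 scale, edgeR adjusted p = 0.0458, range 0.0458 to 0.502), Timp2 without CAF1 tumour 11 (-1.50, edgeR adjusted p = 0.00243, range 0.00243 to 0.122) and Timp3 without CAF1 tumour 10 (0.70, edgeR adjusted p = 0.0399, range 0.0399 to 0.47). Pericyte markers moved with CAF1: all 10 were called higher than in CAF2, and their sum in CAF1 was 5057, 3928, 6773, 2258 and 1251 CPM. Of the epithelial lists, 4 of 6 luminal markers tested and 4 of 4 myoepithelial markers were also higher in CAF1, with sums of 203 to 1679 CPM and 84.0 to 4086 CPM. The part of these other cell types in the CAF1 levels was not tested.

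Among the macrophages, Timp1 was higher in both CD206-positive groups (CD206hi and CD206pos) than in CD206neg. It held 44.7, 86.6, 4.95, 25.5 and 25.6 CPM in CD206hi, 107, 149, 21.1, 141 and 66.1 CPM in CD206pos, and 7.59, 4.90, 0.512, 1.33 and 2.13 CPM in CD206neg. In each tumour CD206pos was highest and CD206neg lowest, and tumour 8 held the lowest value of all 3 groups. The CPM range of CD206pos lay above that of CD206neg, whereas those of CD206hi and CD206neg overlapped. The log2 fold change was 3.33 ± 0.73 for CD206hi over CD206neg (10.1-fold, edgeR adjusted p = 0.00554) and 4.80 ± 0.76 for CD206pos over CD206neg (27.9-fold, edgeR adjusted p = 0.000398). Without the CD206neg libraries of tumours 6 and 8, a choice made after the data were seen, these were 3.31 (edgeR adjusted p = 0.0282) and 4.78 (edgeR adjusted p = 0.00381), the adjusted p over all alternatives ranging from 8.38e-07 to 0.0282 and from 3.75e-08 to 0.00381. CD206hi over CD206pos had -1.47 ± 0.64 (edgeR adjusted p = 0.635), and -1.59 with an adjusted p of 0.00209 once tumour was a block. Fibroblast markers summed to 14.9 to 34.8 CPM in CD206hi, 6.71 to 25.8 CPM in CD206pos and 5.65 to 31.9 CPM in CD206neg. Luminal epithelial markers summed to 38.9 to 333 CPM, 24.1 to 333 CPM and 28.05 to 516.5 CPM in the same groups. None of the 5 fibroblast and 6 luminal markers that could be tested was called in these 3 comparisons. The part of these other cell types in the Timp1 levels was not tested.

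**Figure D3:**
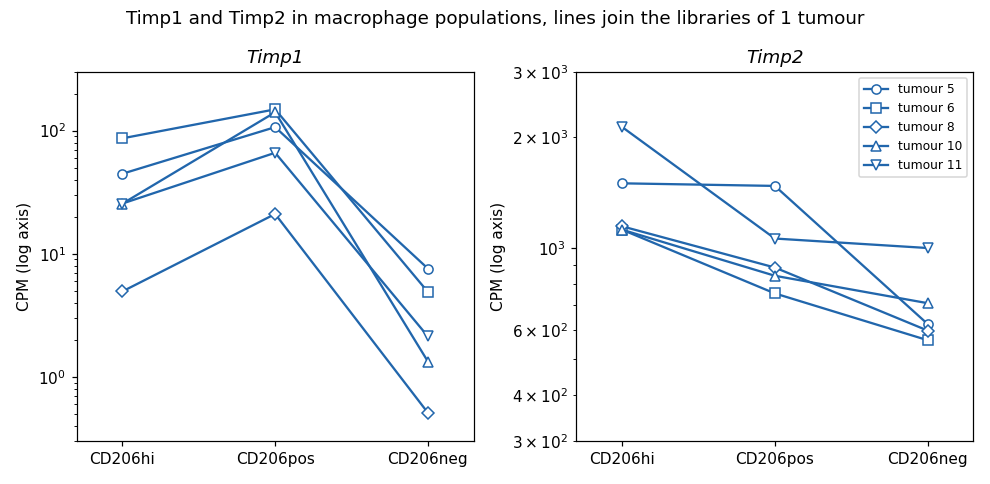
Timp1 and Timp2 in the macrophage groups, as CPM on log axes, with each line joining the 3 libraries of 1 tumour. Timp1 is highest in CD206pos (21.1 to 149 CPM) and lowest in CD206neg (0.512 to 7.59 CPM) in each of the 5 tumours, and Timp2 is highest in CD206hi in each.

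Timp2 was abundant in all 3 macrophage groups. CD206hi libraries held 1498, 1122, 1146, 1122 and 2128 CPM, CD206pos libraries 1474, 754, 886, 842 and 1062 CPM, and CD206neg libraries 624, 564, 598.5, 709.9 and 1001 CPM. In CPM CD206hi was highest and CD206neg lowest in every tumour, and CD206hi did not overlap with CD206neg. Divided by the TMM factors, CD206neg of tumour 11 (factor 0.6096) lay above CD206hi of tumour 5 (1.16), so those ranges overlapped. In tumour 5 CD206pos (1.02) then lay above CD206hi. On TMM-scaled counts CD206hi over CD206neg missed the threshold (log2 fold change 0.86 ± 0.37, edgeR adjusted p = 0.18) and passed it with tumour as a block (0.81, edgeR adjusted p = 0.0273). CD206pos over CD206neg (0.26 ± 0.37, edgeR adjusted p = 0.682) and CD206hi over CD206pos (0.60 ± 0.37, edgeR adjusted p = 0.817) did not pass.

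Only 4 of the 9 genes, Adamts1, Adamts4, Timp1 and Timp2, had enough counts to be tested among the macrophages. Of them 1 was called higher for CD206hi over CD206neg, where 10% of the 11052 genes tested were called, 6.14% as higher and 3.9% as lower. For CD206pos over CD206neg, which shares the CD206neg libraries, 1 was called higher where 14.7% were called, 8.85% as higher and 5.85% as lower. None was called for CD206hi over CD206pos, where 0.19% of genes were called, 0.00905% as higher and 0.181% as lower. CPM ranges did not overlap for Timp2 in CD206hi over CD206neg and for Timp1 in CD206pos over CD206neg, against 5.47% and 6.03% of all genes, and for none of the 9 genes in CD206hi over CD206pos, against 0.715%. Adamts1 averaged 1.47 ± 0.468 CPM in CD206hi, 1.56 ± 1.96 in CD206pos and 1.28 ± 1.11 in CD206neg, and Adamts4 1.39 ± 0.789, 1.22 ± 0.691 and 0.430 ± 0.256 CPM in the same groups (SD, n = 5 each). Adamts4 had a log2 fold change of 1.37 ± 0.72 for CD206hi over CD206neg (edgeR adjusted p = 0.3) and 1.25 ± 0.73 for CD206pos over CD206neg (edgeR adjusted p = 0.27), and those of Adamts1 lay near 0 and changed sign with the settings used. Adamts2, Adamts5, Adamts9, Adamts12 and Timp3 were left untested there and came to 42, 10, 2, 4 and 53 counts in all 15 macrophage libraries together.

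All 9 genes were higher in CAFs than in macrophages, where 68.1% of genes were called, 37.3% as higher and 30.8% as lower. The ranges of 8 of them, all but Timp2, did not overlap, against 20.3% of all genes. Pooled over the 15 macrophage libraries Adamts9 stood at 0.0154 CPM (exact Poisson 95% interval 0.00187 to 0.0557, counting error only), Adamts12 at 0.0309 CPM (0.00841 to 0.0790) and Adamts5 at 0.0771 CPM (0.0370 to 0.142). Over the 10 CAF libraries these genes averaged 6.65, 24.7 and 166 CPM. Adamts1 averaged 409 ± 89.2 CPM in CAFs and 1.44 ± 1.24 in macrophages, Adamts4 379 ± 155 and 1.01 ± 0.722, and Timp3 355 ± 155 and 0.399 ± 0.484 (SD over 10 and 15 libraries, which share 5 tumours). For the inhibitors Timp1 and Timp2 the gap was narrower, with log2 fold changes of 5.34 ± 0.39 (edgeR adjusted p = 4.4e-13) and 0.77 ± 0.24 (1.70-fold, edgeR adjusted p = 0.00668). The median log2 fold change over all genes was 0.10 in that comparison.

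In endothelial cells, set against the same macrophage libraries, the 6 proteases and Timp3 were higher and Timp2 was lower, where 61.3% of genes were called, 36.5% as higher and 24.7% as lower. Ranges did not overlap for 7 of the 9 genes, against 31% of all genes. Markers of other cells were also called higher in the endothelial libraries than in macrophages, 7 of 7 for fibroblasts, 9 of 10 for pericytes, 6 of 7 for luminal and 4 of 4 for myoepithelial cells, and their part was not tested. Timp2 averaged 217 ± 76.5 CPM in endothelial libraries and 1035 ± 419 CPM in macrophage libraries (SD, n = 5 and 15), with a log2 fold change of -3.03 ± 0.38 (edgeR adjusted p = 5.4e-08) and no overlap. Timp1 averaged 60.8 ± 18.8 CPM in endothelial libraries and 45.9 ± 51.9 CPM in macrophage libraries, a log2 fold change of 0.63 ± 0.44 that missed the threshold (edgeR adjusted p = 0.219) and passed it with tumour as a block (0.92, edgeR adjusted p = 0.0454). Adamts2 was the single protease whose endothelial range reached into that of the macrophages.

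Ranked by mean CPM over all 6 groups and with each group tested against the next, the ladders differed between genes, although Adamts2 and Adamts12 had the same order. The share of all genes called in these pairwise contrasts of the 30-library fit was 51.6%, 55% and 54.3% for endothelial cells against CD206hi, CD206neg and CD206pos. It was 53.3%, 56.9% and 56% for CAF1 and 53.8%, 58% and 56.3% for CAF2 against the same groups, and 14.5% for CD206pos against CD206neg. Timp2 ran from CAF2 through CD206hi, CAF1, CD206pos and CD206neg to endothelial cells, and only the last step passed the test (CD206neg over endothelial cells, log2 fold change 2.66 ± 0.41, edgeR adjusted p = 2.31e-06). The step from CAF2 to CD206hi had no overlap in CPM but an edgeR adjusted p of 0.0709, and of 0.00642 with tumour as a block. Those ranges overlapped once divided by the TMM factors (0.5831 for CD206hi of tumour 11). Timp1 ran from CAF1 through CAF2, CD206pos, endothelial cells and CD206hi to CD206neg. The step of CAF2 over CD206pos passed (edgeR adjusted p = 9.1e-05), as did that of CD206pos over endothelial cells (1.45 ± 0.56, edgeR adjusted p = 0.0291), although those ranges overlapped, and that of CD206hi over CD206neg in the same fit (edgeR adjusted p = 0.000561). CAF1 did not differ beyond the spread from CAF2, nor endothelial cells from CD206hi (edgeR adjusted p = 0.978). For Timp3, Adamts1 and Adamts4 no step among the 3 stromal groups passed, and the step to the macrophages had log2 fold changes of 8.34 ± 0.65 for Timp3 (endothelial cells over CD206pos), 7.65 ± 0.61 for Adamts1 (CAF1 over CD206pos) and 7.29 ± 0.54 for Adamts4 (CAF2 over CD206hi), with edgeR adjusted p of 2.02e-12 to 1.03e-11.

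Per kilobase of exon, which allows levels of different genes to be set side by side, the summed Timp and ADAMTS transcripts stood in different proportions in the populations. The 6 ADAMTS genes summed to 343 ± 133 CPM per kilobase in endothelial cells, 302 ± 69.8 in CAF1 and 242 ± 29.3 in CAF2, and to 0.674 ± 0.201 in CD206hi, 0.604 ± 0.502 in CD206pos and 0.415 ± 0.234 in CD206neg (SD, n = 5 each). The 3 Timp genes summed to 187 ± 56.2 CPM per kilobase in endothelial cells, 1964 ± 398 in CAF1, 2034 ± 203 in CAF2, 421 ± 116 in CD206hi, 379.8 ± 91.2 in CD206pos and 192 ± 46.9 in CD206neg. Endothelial cells were thus the population with more ADAMTS than Timp transcript in 4 of 5 tumours.

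The quotient of the Timp sum over the ADAMTS sum was 0.456, 0.500, 1.14, 0.417 and 0.485 in endothelial libraries. It was 3.55, 6.71, 6.44, 12.8 and 6.14 in CAF1 and 7.05, 11.2, 8.24, 7.89 and 8.19 in CAF2. Endothelial libraries lay below all CAF libraries, while CAF1 and CAF2 overlapped. In macrophages it ran from 307 to 1987, on ADAMTS sums that rest on few counts. These are transcript levels and say nothing of protein or of activity, and with the longest transcript in place of the exon union the endothelial mean was 0.576 in place of 0.599.

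**Figure D4:**
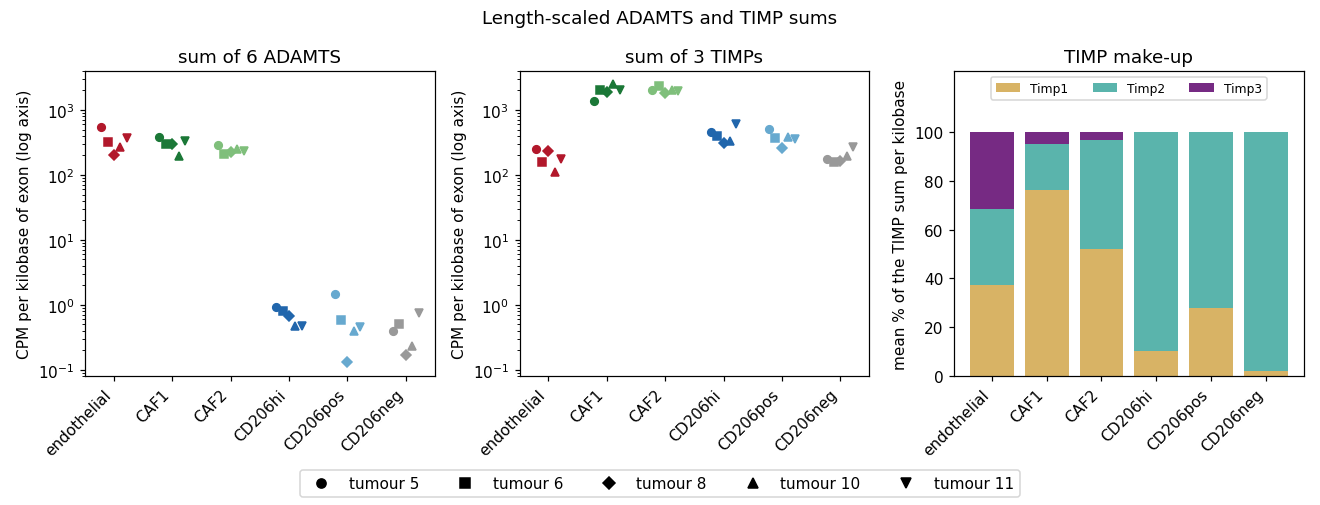
Sums of the 6 ADAMTS genes and of the 3 Timp genes per kilobase of exon (CPM per kilobase, log axes, 1 point per library, shape by tumour), and the mean share of each Timp gene in the Timp sum of a population. The ADAMTS sums of the macrophage groups lie below 2 CPM per kilobase, and the Timp sum is 76.2% Timp1 in CAF1 and 97.9% Timp2 in CD206neg.

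The make-up of both sums differed as well. In endothelial cells Timp1, Timp2 and Timp3 took 37.5%, 30.8% and 31.7% of the Timp sum per kilobase. In CAF1 Timp1 took 76.2% and Timp2 18.7%, and in CAF2 Timp1 took 51.9% and Timp2 44.9%. Timp2 took 89.8% in CD206hi, 72.1% in CD206pos and 97.9% in CD206neg, and Timp1 nearly all of the rest. Of the ADAMTS sum, Adamts1 and Adamts4 took 46.4% and 46.9% in endothelial cells. Adamts2 took 38.3% in CAF1 and 27.1% in CAF2, Adamts1 took 24.95% in CAF1 and 38.3% in CAF2, and Adamts5 took 2.02% in CAF1 and 10.6% in CAF2.

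In CPM, some genes had the same tumour highest or lowest in several groups. Adamts1 and Timp3 were highest in tumour 5 in endothelial cells, CAF1 and CAF2 alike, and Timp1 was lowest in tumour 5 in both CAF groups. Tumour 5 also had the highest TMM factor of CAF1 (1.483) and of CAF2 (1.245). Divided by the factors, Adamts1 in CAF1 was higher in tumour 11 (0.691) than in tumour 5. Adamts2 varied 1.258-fold between the highest and the lowest CAF2 library and 2.03-fold in CAF1, and Adamts5 varied 2.17-fold over the endothelial libraries and 2.98-fold over CAF1. No order of tumours was shared by all 9 genes.

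Of the other ADAMTS genes, 11 of the 12 in the matrix could be tested between CAF1 and CAF2, and 2 rose and 3 fell, where 10.9% of all genes were called higher and 8.59% lower (median log2 fold change -0.51, against 0.01 over all genes). Adamts17 (2.58 ± 0.63) and Adamts7, a further protease that cuts cartilage oligomeric matrix protein (1.60 ± 0.23), were higher in CAF1, and Adamts19 (-2.87 ± 0.51) and Adamts15, a versican-cutting member (-1.66 ± 0.48), were the most reduced. Adamts7 held 34.55, 19.4, 19.5, 23.95 and 23.0 CPM in the CAF1 libraries, against 11.2, 9.46, 8.63, 5.44 and 7.95 CPM in CAF2, and Adamts15 held 20.45, 15.2, 4.52, 44.3 and 25.7 CPM in the CAF1 libraries, against 142, 55.4, 65.1, 93.75 and 52.1 CPM in CAF2. Adamts7 was again higher in endothelial cells than in CAF2 (2.23 ± 0.49, edgeR adjusted p = 0.000532), the only 1 of 12 other ADAMTS genes that was, while 9 were lower, Adamts16 and Adamts19 by most on the fitted scale, which for genes with hardly a count on 1 side depends on the prior count. Over CAF1 6 of 12 were lower and none higher. Of all genes 23.7% were called higher and 22.3% lower over CAF2, and 15.9% and 18.8% over CAF1. Adamts16 averaged 0.0250 ± 0.0558 CPM in endothelial cells, 15.4 ± 11.8 in CAF1 and 20.5 ± 7.56 in CAF2, and Adamts19, for which no endothelial library had a count, 1.17 ± 1.17 in CAF1 and 9.24 ± 3.35 in CAF2 (SD, n = 5 each). All 12 were higher in CAFs than in macrophages, led by Adamts16 and Adamts15, where 37.3% of all genes were. In endothelial cells over macrophages 9 of 12 were higher, led by Adamts7 and Adamts8, where 36.5% of all genes were. Among the macrophages 1 of the 12 could be tested, and it was called in none of the 3 comparisons. In a fit of only endothelial cells and macrophages the 9 became 3, and a filter of 50 counts in 5 libraries, which tests fewer genes, left 3 calls in place of 5 for CAF1 over CAF2, 3 in place of 6 for endothelial cells over CAF1 and 6 in place of 10 over CAF2, 6 in place of 12 for CAFs over macrophages and 5 in place of 9 for endothelial cells over macrophages.

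ADAMTS-like proteins share the carboxy-terminal parts of the proteases and have no catalytic domain. Between CAF1 and CAF2 all 7 could be tested and 4 were called, where 19.5% of all genes were: Adamtsl2 (2.63 ± 0.52) and Thsd4 (1.51 ± 0.36) were higher, and Adamtsl4 (-3.59 ± 0.29) and Adamtsl3 (-2.26 ± 0.43) lower. In macrophages Adamtsl5 was called higher in both CD206-positive groups. It held 12.1, 12.8, 5.06, 9.66 and 17.95 CPM in CD206hi, 32.2, 6.36, 5.55, 3.50 and 7.64 CPM in CD206pos, and 3.64, 0.133, 0.205, 1.22 and 0.502 CPM in CD206neg. The log2 fold change was 3.39 ± 0.69 for CD206hi over CD206neg (edgeR adjusted p = 0.00329) and 3.18 ± 0.69 for CD206pos over CD206neg (edgeR adjusted p = 0.00451). All 7 were higher in CAFs than in macrophages, led by Adamtsl1 and Adamtsl3, where 37.3% of all genes were. In endothelial cells 5 of 7 were lower than in CAF1, Adamtsl3 and Adamtsl5 by most, where 18.8% of all genes were, and 4 of 7 were lower than in CAF2, where 22.3% were, with Adamtsl2 higher (2.50 ± 0.50). Against macrophages 3 of 7 were higher in endothelial cells and 2 lower, where 36.5% and 24.7% of all genes were, Adamtsl4 (-2.81 ± 0.30) and Adamtsl5 (-1.48 ± 0.57).

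The other inhibitors were few. Reck, a membrane-anchored inhibitor of matrix metalloproteases, stood at 8.69 ± 7.28 CPM in endothelial cells, 38.7 ± 10.4 in CAF1, 61.9 ± 7.77 in CAF2 and at most 1.315 CPM in every macrophage library (SD, n = 5 each). It was lower in CAF1 than in CAF2 (log2 fold change -0.58 ± 0.16, edgeR adjusted p = 0.0229), and lower in endothelial cells than in CAF1 (-2.69 ± 0.52) and CAF2 (-3.28 ± 0.53). A2m, the gene of the plasma inhibitor alpha-2-macroglobulin, was higher in CAF1 than in CAF2 (3.74 ± 1.17, edgeR adjusted p = 0.0403), at 2.42, 3.93, 21.2, 0.450 and 2.45 CPM in CAF1 and 0, 1.75, 0.0928, 0 and 0.479 CPM in CAF2. The calls of Reck and A2m were not firm: the count of these genes called, 2, fell to 0 in the fit of all 30 libraries and without CAF1 tumour 6 or CAF2 tumour 11, and to 1 under the stricter filter and without CAF1 tumour 5 or 8 or CAF2 tumour 8 or 10. Spock3, a testican, had no count in any endothelial or macrophage library, and averaged 0.537 ± 0.739 CPM in CAF1, against 3.20 ± 3.56 in CAF2 (SD, n = 5 each). It was called lower in endothelial cells than in CAF1 (edgeR adjusted p = 0.031) and CAF2 (edgeR adjusted p = 0.00281), so that 2 of 3 tested were lower, and 1 in a fit of only the groups compared or, over CAF1, without CAF1 tumour 11. In CAFs over macrophages Spock3 and Reck were higher, of 3 tested, and 4 genes were called without CD206neg tumour 6. In endothelial cells over macrophages A2m and Reck were higher, and 1 gene without endothelial tumour 8.

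Of the known substrates, Vcan, which encodes versican, was lower in CAF1 than in CAF2, with 174, 88.7, 294, 188 and 60.6 CPM in the CAF1 libraries against 327, 241, 399.5, 499 and 393 CPM in CAF2 (log2 fold change -1.16 ± 0.31, edgeR adjusted p = 0.0184). The basement membrane gene Nid1 fell too (-1.10 ± 0.27), and Comp (3.44 ± 1.13, edgeR adjusted p = 0.0485) and Col1a1 (2.34 ± 0.72, edgeR adjusted p = 0.0383) were higher, so that 2 rose and 2 fell of 7 tested, where 10.9% of all genes were called higher and 8.59% lower. With tumour as a block 2 of these 4 kept their call, since Comp (edgeR adjusted p = 0.0652) and Col1a1 (edgeR adjusted p = 0.0546) then missed the threshold, and 2 were called without CAF1 tumour 6. Thrombospondin 1, Thbs1, was the single substrate called for CD206hi against both other macrophage groups, with CPM ranges that overlapped against CD206pos. It held 8.49, 7.12, 13.4, 7.44 and 4.20 CPM in CD206hi, 21.8, 27.0, 36.8, 37.2 and 11.99 CPM in CD206pos and 35.0, 13.6, 16.8, 30.9 and 16.1 CPM in CD206neg. The log2 fold change was -1.59 ± 0.29 for CD206hi over CD206neg (edgeR adjusted p = 0.0015) and -1.67 ± 0.29 for CD206hi over CD206pos (edgeR adjusted p = 0.0239). The call against CD206pos was lost in a fit of all 30 libraries and when any of 6 single libraries was left out, CD206hi of tumours 5, 6, 10 and 11 and CD206pos of tumours 6 and 10.

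In CD206pos over CD206neg 2 substrates rose, Vwf (3.33 ± 0.63, edgeR adjusted p = 0.00175) and Vcan (2.35 ± 0.72, edgeR adjusted p = 0.0354), of 7 tested, where 8.85% of all genes were called higher. That count was 1 without any one of CD206neg tumours 5, 8, 10 and 11 or CD206pos tumours 5, 6, 10 and 11, 1 without CD206neg tumours 6 and 8 together, with no filter and in the fit of all 30 libraries, and 0 under the stricter filter. Against endothelial cells the direction of the substrates was mixed by role: Vwf, the von Willebrand factor gene of endothelium, was higher in endothelial cells than in CAF1 and CAF2, whereas 5 of 8 were lower than in CAF1 and 6 of 8 lower than in CAF2, led by Col1a1, Col1a2 and Col3a1, which are also among the fibroblast markers. Of all genes 18.8% were lower than in CAF1 and 22.3% lower than in CAF2. All 8 were called higher in endothelial cells than in macrophages, led by Nid1 and Vwf, where 36.5% of all genes were. By mean log2(CPM + 1), however, Comp was higher in endothelial cells in 1 tumour and lower in 4, and its CPM ranges overlapped. In CAFs over macrophages 6 of 8 were higher, led by Col3a1 and Col1a1, where 37.3% of all genes were, and Vwf was lower.

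Of 13 partners, receptors and matrix metalloproteases, 12 could be tested between CAF1 and CAF2 and 2 rose and 1 fell, a share near the 19.5% of all genes called, and DESeq2 called 5. Mmp14, the membrane-bound activator of pro-MMP2, was higher (log2 fold change 1.22 ± 0.32, edgeR adjusted p = 0.0166), as was Mmp9, the gelatinase inhibited by TIMP1 (2.62 ± 0.82, edgeR adjusted p = 0.0403, and edgeR adjusted p = 0.129 with tumour as a block). The fibronectin gene Fn1 was lower (-1.37 ± 0.32, edgeR adjusted p = 0.00926). In macrophages Mmp9 was higher and Mmp14 and Mmp2 were lower in both CD206-positive groups than in CD206neg, of 11 tested, and Fn1 was higher in CD206pos, where 10% (CD206hi) and 14.7% (CD206pos) of all genes were called. With tumour as a block the calls numbered 5 in place of 3 for CD206hi and 7 in place of 4 for CD206pos over CD206neg, and without CD206neg tumours 6 and 8 those of CD206pos numbered 2. Mmp9 held 11.5, 12.8, 0.323, 2.33 and 17.1 CPM in CD206hi, 18.8, 3.34, 1.04, 5.67 and 17.2 CPM in CD206pos and 1.31, 0.397, 0, 1.11 and 0.125 CPM in CD206neg, with log2 fold changes over CD206neg of 3.89 ± 1.02 for CD206hi (edgeR adjusted p = 0.0185) and 3.91 ± 1.02 for CD206pos (edgeR adjusted p = 0.0147). Mmp14 held 276, 83.4, 265, 227 and 43.0 CPM in CD206hi, 149, 72.2, 349.6, 123 and 70.3 CPM in CD206pos and 558, 393, 441, 477 and 416 CPM in CD206neg, with log2 fold changes over CD206neg of -1.63 ± 0.38 for CD206hi (edgeR adjusted p = 0.00939) and -1.93 ± 0.39 for CD206pos (edgeR adjusted p = 0.00254). Every CD206neg library thus lay above every CD206-positive one for Mmp14.

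In endothelial cells 2 of 13 partners were higher than in CAF1 and 9 lower, and the counts were the same against CAF2, where 34.7% and 46% of all genes were called. Kdr, a VEGF receptor that TIMP3 can bind, and Adam10 were the higher ones. Mmp3 and Fbln1 were the most reduced against both. Lrp1, the receptor that takes up TIMP3 and several ADAMTS proteases, stood at 17.1 ± 17.2 CPM in endothelial cells, 631 ± 176 in CAF1, 974 ± 83.9 in CAF2, 273.5 ± 110 in CD206hi, 281 ± 142 in CD206pos and 208 ± 132 in CD206neg (SD, n = 5 each; the 5 libraries of a group come from separate tumours). In CAFs over macrophages 6 of 13 were higher, led by Fbln1 and Mmp3, and 4 lower (68.1% of all genes were called), led by Furin, the protease that activates ADAMTS precursors, and Sdc4. In endothelial cells over macrophages 4 were higher, led by Kdr and Fbln1, and 6 lower, led by Lrp1 and Sdc4, where 61.3% of all genes were called.

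The genes most like each of the 9 over the 30 libraries were ranked by the root mean square difference of centred log2(CPM + 1), a description with no test, since all share the same libraries. Lamb1, a laminin chain, was nearest to Adamts1 (0.512 log2 units, the median over all genes being 3.71) and to Adamts4 (0.616), and Adamts1 and Adamts4 were among each other's 3 nearest (0.634), as both were for Timp3 (0.675 and 0.711). Lama4 and Ehd2 completed the lists of Adamts1 and Adamts4, and Fkbp10 was nearest to Timp3 (0.533). Adamts2 was nearest to Lhfp, Col5a2 and Col6a1 (0.488 to 0.699), and Adamts5 to Tnfrsf11b, Nsg1 and Itih5 (0.610 to 0.714). Adamts9 was nearest to Ehd3, Pcdh1 and Dcbld1 (0.440 to 0.539), and Adamts12 to Aoc3, Gpc4 and Susd2 (0.354 to 0.449). Timp2 was nearest to Arap1, Ust and Cpq (0.580 to 0.635). Timp1 had no near neighbour: its closest, Rcn3, Fam20a and Egfr, stood at 1.16 to 1.22, and Rcn3 averaged 186 CPM in CD206hi, 156 in CD206pos and 2.13 in CD206neg.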

How the data were processed

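The authors deposited raw counts per gene, keyed by Entrez ID, for all 30 libraries. Per the submitters' processing notes the tools were Trimmomatic 0.36, HISAT2 2.0.4, SAMtools 1.3.1 and DESeq2 1.26 with build mm10. Which program counted the reads, with which annotation and strand option, is not given here by any source. Without strand, reads of genes that overlap on opposite strands cannot be told apart, and 1 such overlap is not reported here. Genes in the matrix have at least 72 counts in all, and the 14 genes with no symbol hold 0.0107% of counts. Per the labels, SMARTseq v4 cDNA was made from sorted cells.

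Counts were tested in R 4.3.3 with edgeR 4.0.16 (filterByExpr, TMM, quasi-likelihood F test, Benjamini-Hochberg adjustment over all genes). The fit for CAF1 over CAF2 held 10 libraries and 12149 genes, that for the macrophage groups 15 libraries and 11052 genes, and that for comparisons between lineages 30 libraries and 13610 genes. The standard error is the log2 fold change over the square root of F. The median log2 fold change over all genes was 0.169 for endothelial cells over macrophages. CPM are counts per 1000000 of the library total. They carry no TMM factor, so orders and ranges of CPM can differ from those on the scale tested. Coordinates and exon lengths come from GENCODE M21 on GRCm38, the same assembly as mm10. The test scripts were tested on simulated data.

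Libraries of 1 tumour come from 1 animal, so tumour numbers pair them. Their deviations correlated at 0.0795 to 0.432 among CAFs, at 0.142 to 0.693 among macrophages and at 0.0275 to 0.663 over all 6 groups. Values are from fits with no block unless one is named. Fold changes and counts of calls were recomputed with a tumour block, without any filter, with a stricter filter (50 counts in 5 libraries), with RLE in place of TMM, by DESeq2 1.42.0, with another set of libraries and after leaving out single libraries. Mean CPM were recomputed on the TMM scale and without single libraries. Sums of genes, shares and nearest genes were not recomputed under these alternatives. The genes and lists were chosen with earlier results of these data known. The text names all 9 genes, up to 2 genes per further list, comparison and direction with the largest called change, and the 3 nearest genes of each. Intervals and floors cover counting error only.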

Additional observations from a re-analysis of the deposited data

Results flagged for a closer look

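The sets of 5 libraries looked at were each gene in each population where a library had more than 3 counts of it, and the ADAMTS sum, the Timp sum and their quotient in endothelial cells, CAF1 and CAF2, 54 sets in all. In 9 of them 1 library stood far from the other 4, its gap to the nearest being more than 0.71 of the whole range (Dixon's 95% limit, which chance passes in about 1 of 20 sets). In CAF1 of tumour 10, Adamts4 stood at 232 CPM (498 to 592.5 CPM in the others) and Adamts5 at 111 CPM (37.2 to 52.7 CPM in the others). In CAF1 of tumour 11, Timp2 stood at 1999 CPM (1045 to 1321 CPM in the others). The quotient of the Timp sum over the ADAMTS sum was 1.14 in endothelial cells of tumour 8 (0.417 to 0.500 in the others) and 11.2 in CAF2 of tumour 6 (7.05 to 8.24 in the others). The endothelial library of tumour 8 also had the lowest sum of endothelial markers, 2830 CPM against 5688 CPM or more in the others, and the highest sums of fibroblast and pericyte markers, 1443 and 3656 CPM, whose part in the quotient was not tested. The other 4 were macrophage values of few counts: Adamts1 at 4.98 CPM in CD206pos of tumour 5, Adamts2 at 1.06 CPM in CD206neg of tumour 6, Adamts5 at 0.699 CPM in CD206hi of tumour 6 and Timp3 at 1.29 CPM in CD206hi of tumour 8.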

How the results depend on the processing

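Of 1155 recomputed log2 fold changes of the 9 genes, 1113 kept their direction and their side of the threshold, 7 lost and 13 gained a call, and 22 changed sign, none of them in a gene called in that comparison. Beyond the calls given above, the block changed none of the 9 genes. The number of the 9 genes called between CAF1 and CAF2 was 3 in place of 5 in the fit of all 30 libraries. With the replicate block for tumour it was 2 in place of 1 for CD206hi over CD206neg and 1 in place of 0 for CD206hi over CD206pos. Genes called over the whole matrix with that block numbered 1791 in place of 1110 for CD206hi over CD206neg, 2800 in place of 1625 for CD206pos over CD206neg and 97 in place of 21 for CD206hi over CD206pos, and the block moved no other count of genes by over 1.5 times. Without the CD206neg libraries of tumours 6 and 8 they numbered 545 and 930 for the comparisons with CD206neg. For CD206hi over CD206pos DESeq2 called 83, the fit of all 30 libraries 36, and fits without 1 library 5 to 48. Sign changes: Adamts1 in CD206hi over CD206neg (-0.04) was 0.32 with the block and -0.36 to 0.73 without 1 library. In CD206pos over CD206neg (0.002) it was -0.094 with the block, -0.017 with DESeq2, -0.059 with no filter, -0.47 without CD206neg of tumours 6 and 8 and -0.99 to 0.77 without 1 library. In CD206hi over CD206pos (-0.05) it was 0.42 with the block and -0.36 to 0.93 without 1 library, and Adamts4 (0.12) was -0.21 to 0.33 without 1 library. Adamts4 in endothelial cells over CAF1 (0.19) was -0.07 to 0.48 without 1 library. In a single library a gene with no count may stand at up to 0.251 to 0.477 CPM.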
